A study of Homo sapiens with 4 samples.

Results

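Peaks from p53 ChIP-seq were examined at 5 receptor genes of the TNF receptor superfamily: TNFRSF10A, TNFRSF10B, TNFRSF10C and TNFRSF10D, which form a cluster on chromosome 8, and FAS on chromosome 10. A peak was assigned to a gene when its summit, the position of strongest signal in the peak, lay inside the GRCh38 RefSeq gene or within 10 kb of either end. The 5 genes were set beside all 20037 protein-coding genes. Of 11488 peaks in 4 lists, 4 met the rule: 1 came from p53WT 2, 3 came from CASM34 2, and 0 from p53WT 1 or CASM34 1. All cells were H1299, an established non-small-cell lung carcinoma line whose genotype the labels give as p53-/-. In 2 libraries the cells expressed wild-type p53 (p53WT) and in 2 a mutant p53 named CASM34, and the series title speaks of synonymous mutations linked to cancer. How p53 was expressed, and whether the libraries numbered 1 and 2 came from separate cultures, is not given in the sources used here. Any p-value therefore covers library-to-library spread alone, which could be purely technical.

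Death receptors are membrane proteins that, on binding their ligand, recruit the adaptor FADD and caspase-8 and so start the extrinsic pathway of apoptosis. TNFRSF10A (DR4) and TNFRSF10B (DR5) are the receptors through which TRAIL kills cells. TNFRSF10C and TNFRSF10D bind TRAIL but lack a working death domain and act as decoys, and FAS is the receptor of FAS ligand. Several of these genes, TNFRSF10B and FAS among them, are known targets that p53 switches on after DNA damage.

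Peaks lay at 3 of the 4 genes of the TNFRSF10 cluster, and each sat just inside the end of the gene with the higher coordinate. TNFRSF10A had a peak in both libraries numbered 2, TNFRSF10B and TNFRSF10D had one in CASM34 2 alone, and TNFRSF10C had none. By the same rule, 16.2% of all protein-coding genes had a peak in p53WT 2 and 10.9% in CASM34 2. As background, TNFRSF10A, TNFRSF10B and TNFRSF10D are transcribed from this upper end and TNFRSF10C from its lower end. Exons, introns and the sequence under these peaks were not used here.

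TNFRSF10A spans 23190452 to 23225102 on chromosome 8. In p53WT 2 its peak ran from 23224794 to 23225023, with the summit at 23224924, 178 bp inside the upper end. The fold of that peak, the authors' ratio of signal over background, was 5.83, and its deposited −log10 q was 4.52. In CASM34 2 the peak ran from 23224731 to 23224942, with the summit at 23224805, 297 bp inside the same end. There the fold was 4.55 and the −log10 q was 2.41. The libraries p53WT 1 and CASM34 1 listed no peak at the gene, so the 2 groups had the same pattern of 1 library with a peak and 1 without. The 2 peaks shared 149 bp, which was 64.8% of the p53WT 2 peak and 70.3% of the CASM34 2 peak. Their summits lay 119 bp apart, with that of p53WT 2 nearer to the gene end. This is a usual distance for these libraries: among 1089 genes called in both, the closest pair of summits was a median of 153 bp apart, and 44.6% of the genes had a closer pair. Both peaks also lay close to the non-coding gene TNFRSF10A-DT, which begins at 23225221. The p53WT 2 summit was 297 bp from it and the CASM34 2 summit 416 bp, and neither peak reached it.

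TNFRSF10B spans 23020133 to 23069031 and carried the strongest of the 3 peaks of CASM34 2. That peak ran from 23068627 to 23068884, with the summit at 23068749, 282 bp inside the upper end. Its fold was 5.68 and its −log10 q was 5.16. In p53WT 2 the nearest summit was the one at TNFRSF10A, 155.9 kb away. The transcribed pseudogene TNFRSF10B-AS1 (23068229 to 23083619) overlaps this end of TNFRSF10B, and the CASM34 2 peak lay within both, so it cannot be assigned to 1 of them.

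TNFRSF10D, a decoy receptor gene, spans 23135588 to 23164027. Its CASM34 2 peak ran from 23163697 to 23163879, with the summit at 23163780, 247 bp inside the upper end. The fold was 4.24 and the −log10 q was 2.19, the lowest of the 4 peaks. TNFRSF10C, the other decoy receptor gene (23102921 to 23117445), is the shortest of the 5 at 14525 bp. No library had a summit within 10 kb of it, and the nearest was that of TNFRSF10B in CASM34 2, 34.2 kb from its lower end. In p53WT 2 the nearest summit to TNFRSF10C was at TNFRSF10A, 107.5 kb away. The 4 genes of the cluster are related in sequence, and whether reads could be placed at more than 1 of them was not tested.

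**Figure D1:**
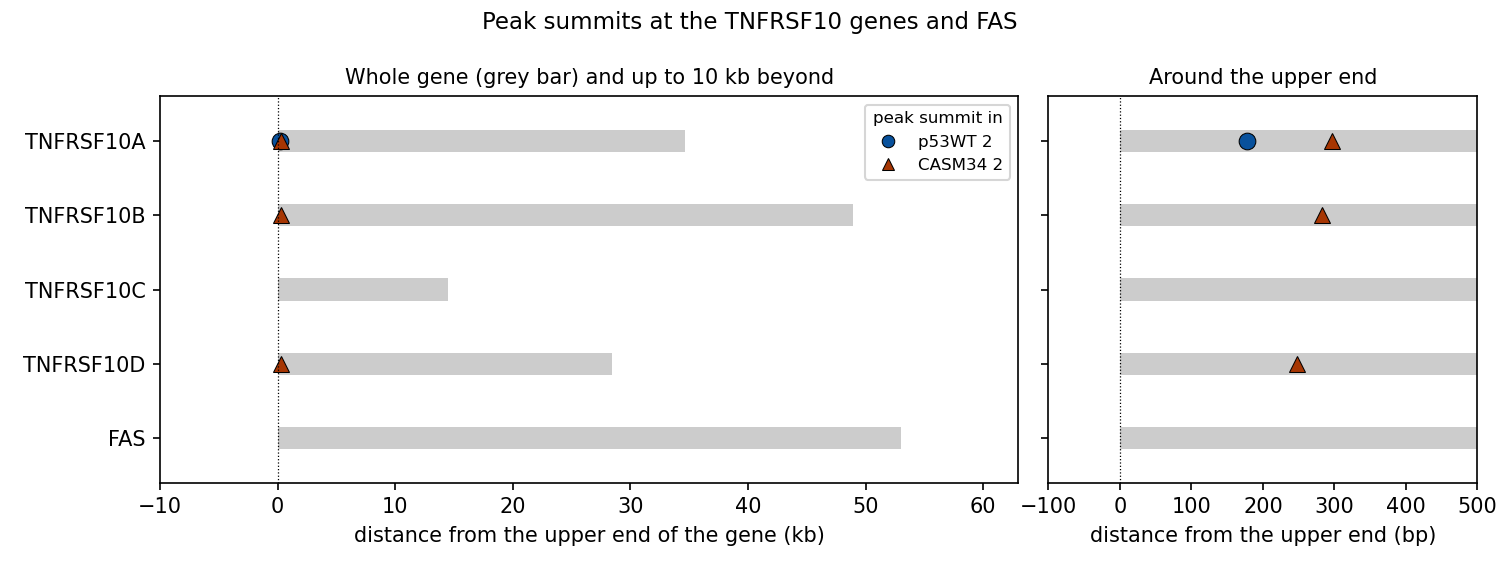
Position of each peak summit relative to the gene end with the higher coordinate, in kb over the whole gene (left) and in bp around that end (right). Grey bars are the RefSeq genes, circles p53WT 2 and triangles CASM34 2; the libraries numbered 1 had no summit in these windows. The 4 summits lie between 178 and 297 bp inside the end, and TNFRSF10C and FAS have none.

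Position at the gene end was common among genes with a peak. Of 2177 protein-coding genes called in CASM34 2, 1211 (55.6%) had a summit within 1 kb of an end, and of 3244 called in p53WT 2, 1831 (56.4%) did. All 4 peaks at the TNFRSF10 genes were of this kind. As a share of all protein-coding genes, a summit within 1 kb of an end was found for 6.04% in CASM34 2, against 3 of the 5 receptor genes, and for 9.14% in p53WT 2, against 1 of 5. The libraries numbered 1 had few peaks of this kind anywhere, 59 in p53WT 1 and 78 in CASM34 1, against 1708 and 1098 in the libraries numbered 2.

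Within their lists the 4 peaks ranged from the lower to the upper part by strength. In p53WT 2 the −log10 q of the TNFRSF10A peak exceeded that of 72.8% of all peaks and of 86.4% of the peaks within 1 kb of a gene end. In CASM34 2 the TNFRSF10B peak exceeded 65.8% of all peaks and 89.6% of the gene-end peaks. The other CASM34 2 peaks ranked lower, with TNFRSF10A above 26.2% and TNFRSF10D above 21.5% of all peaks, and above 32.4% and 26.1% of the gene-end peaks. The lowest −log10 q in either list was 1.31. Fold and q come from each list's own calling, so their levels in different libraries are given side by side and not compared.

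**Figure D2:**
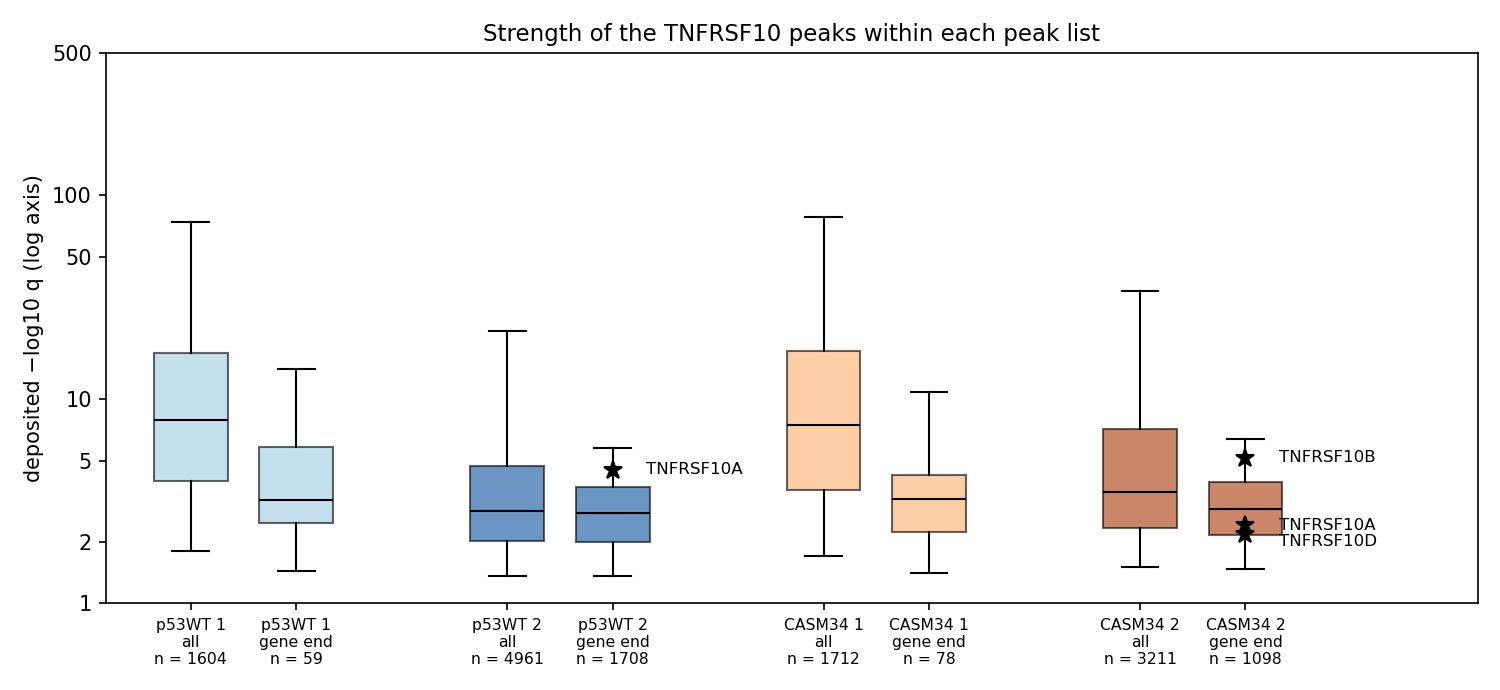
Deposited −log10 q (log axis) of all peaks and of peaks with a summit within 1 kb of a protein-coding gene end, in each library. Boxes give the quartiles and median, whiskers the 5th and 95th percentiles, and stars the peaks at TNFRSF10 genes. The stars of p53WT 2 (TNFRSF10A, 4.52) and CASM34 2 (TNFRSF10B, 5.16) lie above the gene-end medians of 2.75 and 2.90, and those of TNFRSF10A (2.41) and TNFRSF10D (2.19) in CASM34 2 lie below.

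Over the cluster, CASM34 2 held 3 peaks and p53WT 2 held 1 in the 205.0 kb from the lower end of TNFRSF10B to the upper end of TNFRSF10A. In CASM34 2 the TNFRSF10B and TNFRSF10D summits were 95031 bp apart, and those of TNFRSF10D and TNFRSF10A 61025 bp. The 3 peaks of CASM34 2 correspond to 14.6 peaks per Mb, where chromosome 8 as a whole held 1.70 per Mb. The 1 peak of p53WT 2 corresponds to 4.88 per Mb, against 2.50 over the chromosome. A span picked for its genes is not comparable with a whole chromosome in gene content, so these densities are a description. In p53WT 1 the nearest summit to any gene of the cluster was 15007.3 kb away, and in CASM34 1 it was 21324.8 kb away.

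Counted by library, 1 of the 5 receptor genes was called in p53WT 2, where 16.2% of all protein-coding genes were called by the same rule. In CASM34 2 the count was 3 of 5 against 10.9%. In p53WT 1 and CASM34 1 it was 0 of 5, where 1.39% and 1.67% of all genes were called. The p53WT 2 count was thus close to the share of all genes, and so were the counts of 0. The CASM34 2 count was above it, but the genes were chosen with earlier results of these data known, and no test was made of it. TNFRSF10A was the 1 receptor gene called in both libraries numbered 2, as were 5.43% of all genes. TNFRSF10B and TNFRSF10D were called in CASM34 2 and not in p53WT 2, as were 5.43% of all genes. No receptor gene was called in p53WT 2 and not in CASM34 2, as were 10.8% of all genes.

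**Figure D3:**
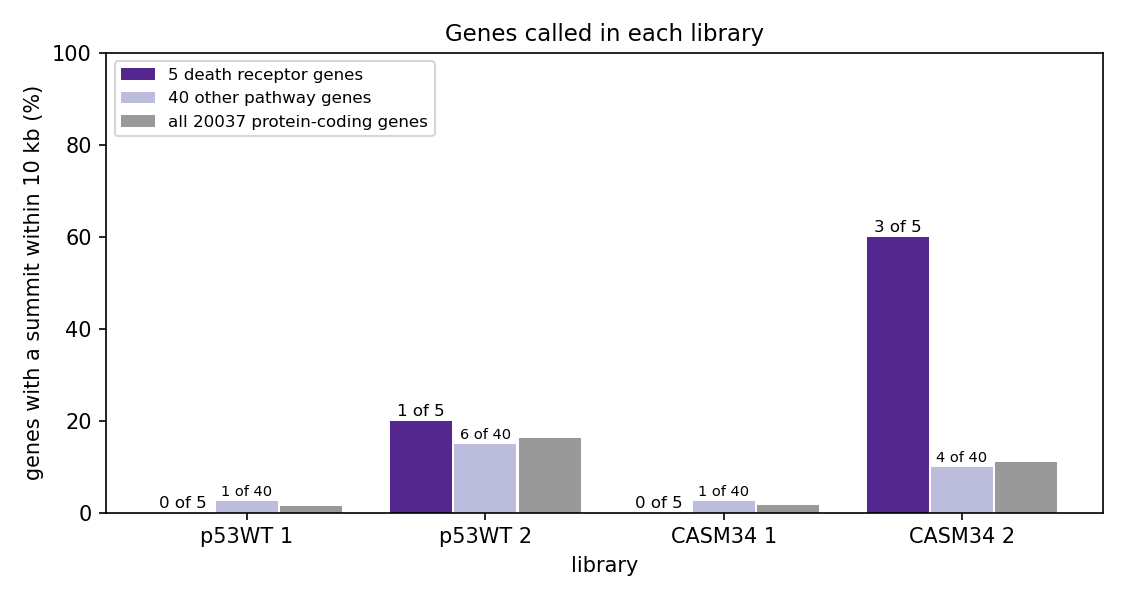
Percentage of genes with a summit within 10 kb in each library, for the 5 receptor genes, 40 other genes of the death receptor pathway and all 20037 protein-coding genes. The receptor genes reach 3 of 5 in CASM34 2 and 1 of 5 in p53WT 2, and the other pathway genes stay near the grey bars in the libraries numbered 2.

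The design asks whether p53 binding differs between the forms of p53, and at these genes the groups did not separate. The p53WT libraries called a mean of 0.5 ± 0.707 receptor genes (SD, n = 2), and the CASM34 libraries called 1.5 ± 2.12 (SD, n = 2). The difference of -1 was smaller than the spread between the CASM34 libraries (exact two-sided permutation p = 1, smallest possible 0.333). Between the libraries numbered 1 the difference was 0, and between those numbered 2 it was -2. Each called gene of the cluster had 1 peak, so the number of peaks over the cluster gave the same means, SDs and p. The difference rested on CASM34 2, and without that library it was 0.5. When a −log10 q of 3 or more was required, p53WT 2 called TNFRSF10A alone and CASM34 2 called TNFRSF10B alone, a difference of 0. By that limit 6.48% of all protein-coding genes were called in p53WT 2 and 5.54% in CASM34 2. The TNFRSF10A peak of CASM34 2 fell below that limit, so no receptor gene was then shared. The lists hold no read counts, so depth is unknown, and a gene without a peak is not shown to lack p53.

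FAS had no peak in any of the 4 libraries. Having no peak was usual within each library. By the same rule, 16.2% of all protein-coding genes were called in p53WT 2 and 10.9% in CASM34 2. In p53WT 1 it was 1.39% and in CASM34 1 it was 1.67%. The nearest summit to FAS was 660.5 kb away in p53WT 2, 1304.2 kb in CASM34 2, 3358.7 kb in p53WT 1 and 3608.1 kb in CASM34 1. FAS spans 88964050 to 89017059 on chromosome 10 and is the longest of the 5 genes at 53010 bp. It overlaps the smooth muscle actin gene ACTA2 and the non-coding FAS-AS1, which were without a peak within 10 kb as well. The group means were both 0, so the exact permutation test has nothing to separate.

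The first intron of FAS is known to hold a p53 response element, and the start windows that RefSeq gives for FAS were searched for the p53 half-site, the degenerate 10-base motif of which 2 copies make up a response element. Each window runs from 250 bases before a start site to 50 after it. Such windows were at hand for 1 of the 5 genes, FAS, with 3 start sites on the plus strand at 88990798, 88990914 and 88991431. The window of the start at 88991431 held 1 match and the other two held none, while 6.63% of 35116 windows of all genes held at least 1. The motif reads the same on both strands. The match ran from 88991309 to 88991318, 122 bases before that start, and the 10 bases after it fitted the motif at 8 of 10 positions. The 250 bases before this start (RefSeq, GRCh38.p14, chr10:88991181-88991430, plus strand) are shown because they hold the match and no library listed a peak over them; capitals mark the matching half-site.
FAS: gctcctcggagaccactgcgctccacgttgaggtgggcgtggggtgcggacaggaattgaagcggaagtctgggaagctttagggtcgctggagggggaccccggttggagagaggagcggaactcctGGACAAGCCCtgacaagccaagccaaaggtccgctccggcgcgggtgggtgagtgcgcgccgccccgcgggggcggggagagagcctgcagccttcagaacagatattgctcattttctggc
The match lay after the other FAS starts, at 88990798 and 88990914, and inside the RefSeq gene. Whether it belongs to the known response element of the first intron was not tested. A match of letters is a description and does not show a bound site.

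Other genes of the pathway were called about as often as genes in general. Of 40 genes, 6 (15.0%) had a summit within 10 kb in p53WT 2 and 4 (10.0%) in CASM34 2, against the 16.2% and 10.9% of all protein-coding genes. In p53WT 1 and in CASM34 1 it was 1 gene each (2.50%), against 1.39% and 1.67% of all protein-coding genes. The p53WT libraries thus called a mean of 3.5 ± 3.54 pathway genes (SD, n = 2) and the CASM34 libraries 2.5 ± 2.12 (SD, n = 2; exact two-sided permutation p = 1, smallest possible 0.333). Their difference of 1 turned to -1.5 without p53WT 2 and to -0.5 without CASM34 1. None of the 6 ligand genes on the list, which include TNFSF10 (TRAIL) and FASLG, was called in any library.

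Among 9 other receptors of the family, 3 (33.3%) were called in p53WT 2 and 1 (11.1%) in CASM34 2. Of all protein-coding genes, 16.2% and 10.9% were called in these libraries. TNFRSF21, which encodes the death domain receptor DR6, was called in both, as were 5.43% of all protein-coding genes. Its summits lay at 47309802 in p53WT 2 and at 47309620 in CASM34 2 on chromosome 6, 103 and 285 bp inside the upper end. That position is like the one at the TNFRSF10 genes and is common. Of genes called in p53WT 2, 56.4% had a summit within 1 kb of an end, and of those called in CASM34 2, 55.6%. The −log10 q of the TNFRSF21 peaks was 2.16 and 2.57. TNFRSF6B and NGFR were called in p53WT 2 alone, and are named after their values were seen. The TNFRSF6B summit lay 9649 bp outside the gene and 357 bp from an end of ARFRP1.

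Among 25 adaptors, caspases and regulators, 3 were called in p53WT 2, 3 in CASM34 2 and 1 in each library numbered 1. The shares of all protein-coding genes were 16.2% in p53WT 2 and 10.9% in CASM34 2. They were 1.39% in p53WT 1 and 1.67% in CASM34 1. The gene called in each library numbered 1 was RIPK1, the kinase that links death receptors to survival and necroptosis. RIPK1 was called in all 4 libraries, and the share of all genes called in all 4 was not computed. RIPK1 had 4 peaks in either p53WT library and 3 in either CASM34 library. All but 1 of them lay inside the gene between 3090888 and 3093960 on chromosome 6, more than 21 kb from an end. The exception, also inside the gene, was in p53WT 2, at 3068585, 4618 bp from the lower end. Within its own list, the RIPK1 peak of highest −log10 q exceeded 48.1% of all peaks of p53WT 1 and 95.2% of those of p53WT 2. For CASM34 1 this share was 55.5%, and for CASM34 2 it was 83.7%. Peaks in this inner stretch were listed in the libraries numbered 1 as well. DEDD2 and FAIM were called in p53WT 2 alone, and FAF1 and CASP8, the caspase that FAS and the TRAIL receptors activate, in CASM34 2 alone; these 4 are named after their values were seen. The FAF1 summit lay 9243 bp outside the gene and nearer to an end of CDKN2C, at 5124 bp. The CASP8 peak was weak, with a −log10 q of 1.64, and lay 4433 bp inside the gene.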

How the data were processed

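Chromatin from H1299 cells was cut with micrococcal nuclease, sonicated and precipitated with the p53 antibody DO-1, per the labels' protocols. Reads were handled with Trim Galore, Bowtie2 and bedtools on GRCh38, per the submitters' processing notes. The peak caller is not given in the sources used here, nor are its control and threshold. The authors deposited 1 peak list per library, with a fold (ratio of signal over background), a −log10 p, a −log10 q and a score that follows the −log10 q. These values are the authors' own and describe peaks within a list.

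Positions are 1-based. The lists were limited to the autosomes, X and Y. Where several rows gave 1 interval, the row of highest −log10 p stood for the peak. Gene intervals are those of RefSeq for GRCh38.p14. The 5 genes, the 40 pathway genes (all matched) and the tests were chosen with earlier results of these data known. The rule for naming took pathway genes called in at least 2 libraries, which gave TNFRSF21 and RIPK1; other pathway genes are named outside it, after their values were seen. Groups were compared by exact permutation with Python 3.11.15. Gene assignment was tested on simulated summits. Alternatives were other windows, thresholds and list lengths, peak overlap in place of the summit, every row, leaving out each library, and a replicate block. The peaks on chromosome 8 are given without sequence. Some items are not reported here.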

Additional observations from a re-analysis of the deposited data

How the results depend on the processing

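Of 84 recomputed values, 69 kept their direction or, for counts within a library, stayed within 1.5 times. Another 10 moved and 5 reversed. The 69 include all values for FAS and for receptor genes in p53WT 1 and CASM34 1, which were 0 at every setting. A value of 0 has no direction to keep. The values for cluster peaks repeated those for receptor genes at every setting but the 50 kb window. With a −log10 q of 3 or more required, and with lists of 1604 peaks each, the group difference became 0 both for receptor genes called and for cluster peaks. CASM34 2 then called 1 receptor gene, TNFRSF10B, as it did at 5, where p53WT 2 called 0. All protein-coding genes were called in 3.94% (CASM34 2) and 3.53% (p53WT 2) with equal lists, and in 1.74% and 1.83% at 5. The pathway difference became 0 at both thresholds and -0.5 with equal lists; the cause was not tested. Leaving out 1 library gave -2.5 to 0.5 for receptor genes and for cluster peaks, 0 for FAS and -1.5 to 3.5 for pathway genes. The sign turned for receptor genes and cluster peaks without CASM34 2 (0.5), and for pathway genes without p53WT 2 (-1.5) or CASM34 1 (-0.5). Within 50 kb CASM34 2 called 4 receptor genes, TNFRSF10C being added through the TNFRSF10B peak, while 18.9% of all protein-coding genes were called there, against 10.9% within 10 kb. The labels do not say that a number marks a shared culture or day. With 1 library per group and number, a replicate block cannot change the difference of group means. The block values, -1 for receptor genes and cluster peaks, 0 for FAS and 1 for pathway genes, are therefore no check. They count among the 69. Depth is unknown, so absent peaks are not evidence of absent binding.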
